A study of Mus musculus with 13 samples.

Results

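RNA-seq of mouse limb buds at embryonic stage E11.5 was compared between 3 controls and 4 embryos without functional Sox9, called Sox9null as in the labels. The members of this comparison are those 7 libraries, of 13 in the series, and all 12880 genes of the deposited table. Per the file header, each library is the limb buds of 1 embryo, the controls were Sox9fl/- and the mutants Sox9-/-. A floxed allele is intact until a Cre recombinase cuts it, so both groups carried a null copy and the controls kept 1 working copy: the comparison is of 1 copy with none, not of wild type with none. Neither the labels nor the header give what drove the deletion, which exons it removed, the strain or the number of litters. The other 6 libraries, E12.5 limb buds that were Sox9fl/fl or Sox9fl/flPrx1CreER, entered only the estimate of the spread of each gene. Values are normalized RPKM (read counts divided by gene length and depth, with a further normalization by the authors), and differences are on the log2(RPKM + 1) scale, Sox9null minus control. The scale understates the change of genes with low values.

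SOX9 is a transcription factor of the SoxE group that binds DNA through an HMG box. In the limb it is made by mesenchymal cells that gather into condensations and become chondrocytes, the cells of cartilage. There it acts with SOX5 and SOX6, the other members of the SOX trio, on enhancers of genes for cartilage collagens and proteoglycans. In the mouse limb bud the first condensations form around E11.5.

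By correlation the 7 libraries formed 2 sets: one of 4, with controls 1 and 3 and mutants 3 and 4, and one of 3, with control 2 and mutants 1 and 2. Pearson r across genes was 0.979 to 0.989 within these sets and 0.938 to 0.966 between them. The labels do not say what the sets are, and they were found from the data, so a fit with the set as a term is given as an alternative beside the main fit. Both sets hold both genotypes. Y-linked genes averaged 20.4 RPKM in control 1, 21.6 in the third mutant and 0.077 or less elsewhere. As a check of the tissue, the control means were 51.1 RPKM for Tbx4 and 81.0 RPKM for Pitx1, both hindlimb identity genes, and all 18 genes of a limb mesenchyme list were measured. In whole limb buds, fewer cells of a type and less RNA per cell cannot be told apart.

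Few genes were called, and genes of cartilage led them. With limma and Benjamini-Hochberg adjustment over all genes, 7 of 12880 genes (0.0543%) were called at an adjusted p under 0.05, all 7 lower in Sox9null, among them Lect1, Col9a3, Col9a2, Fzd9, Sox9 and Enpp2. None was called higher. An unadjusted p under 0.05 was found for 363 genes, less than the share of 0.05 that chance alone would give. The log2 difference was within 0.25 of 0 for 95.7% of genes, and the median over all genes was 0.01, with 43.2% below 0. Of the 7, 5 differed by at least 1 on the log2 scale. Once the library set was added as a term, the count was 41 genes (0.318%), 30 lower (0.233%) and 11 higher (0.0854%), the 7 among them. With that term 1865 genes had an unadjusted p under 0.05, more than a share of 0.05 of all genes. Of the 34 called with that term alone, 19 were called in at most 5 of 10 alternatives with the term, and Col2a1 and Prdm16 in all 10. All 41 had the same sign within the set of 4 as within the set of 3, which describes calls chosen for their difference and is no further test. On the E11.5 libraries alone limma called 0 genes, with 241 at an unadjusted p under 0.05.

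**Figure D1:**
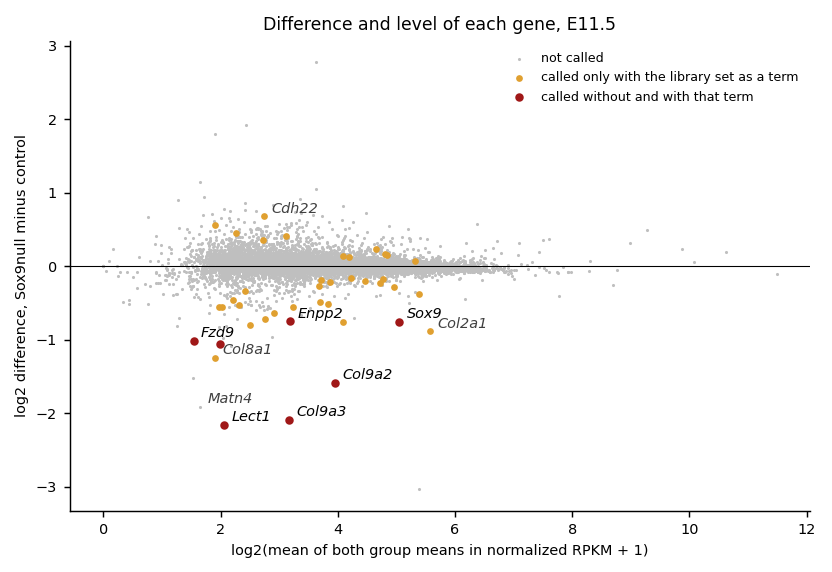
Log2 difference between Sox9null and control (y axis) against level, the log2 of the mean of both groups in normalized RPKM plus 1 (x axis), for 12880 genes at E11.5. The 7 genes in red were called both without and with the set term, the 34 in orange were called with it alone, and grey genes were not called; Lect1, Col9a3 and Col9a2 lie at log2 differences of -2.16, -2.09 and -1.58.

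Sox9 RNA was lower and still present in the embryos without a working copy. Sox9 (ENSMUSG00000000567, mm10 chromosome 11, 112782224 to 112787760, plus strand) had 35.8, 49.3 and 37.1 RPKM in controls 1, 2 and 3, then 20.6, 25.7, 25.04 and 22.7 RPKM in Sox9null 1 to 4. The highest mutant library lay below the lowest control. Sox9 fell by 0.76 on the log2 scale (SE 0.11, limma adjusted p = 0.036), with 23.5 ± 2.35 RPKM (SD, n = 4) against 40.7 ± 7.47 (SD, n = 3). A two-sided exact permutation test gave p = 0.0571, which is the floor for 35 splits. Reads of a gene can come from exons outside the deleted part, so the level checks the labels only in part. The call was kept under 9 of 20 other settings. It was lost when control 2, control 3 or any single mutant was left out, on the E11.5 libraries alone, with a sex term, with quantile normalization, without the trend and at a mean of at least 5 RPKM (limma adjusted p 0.0504 to 0.523 where lost).

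The partners of SOX9 and its SoxE relatives had lower values too, apart from Sox8. Sox6 had 5.58, 12.45 and 8.48 RPKM in the controls against 4.41, 4.11, 3.47 and 3.51 in Sox9null, a log2 difference of -0.96 (limma adjusted p = 0.416). Sox5 had 5.90, 9.82 and 6.62 RPKM in the controls against 4.87, 4.49, 3.51 and 3.42 in Sox9null, a log2 difference of -0.72. Sox5 did not pass the main test (limma adjusted p = 0.416) and was called with the library set as a model term (limma adjusted p = 0.0111). For both genes the mutants lay below every control, and control 2 was the highest library. Sox10, a SoxE gene of neural crest and Schwann cells, had 2.76, 1.37 and 2.01 RPKM in the controls against 0.893, 0.998, 0.441 and 0.557 in Sox9null (log2 difference -0.81, limma adjusted p = 0.416). Sox8, the third SoxE gene, had 10.1, 7.41 and 9.23 RPKM in the controls against 8.90, 10.9, 11.4 and 9.02 in Sox9null, so its groups overlapped (log2 difference 0.16, 95% interval -0.10 to 0.42). Of the 5 genes, 1 was called and 4 were below 0, against 0.0543% and 43.2% of all genes tested, with a median of -0.76. The SoxC genes Sox4, Sox11 and Sox12, which are broadly active in progenitor cells, had means of 66.8, 88.1 and 24.4 RPKM in the controls against 63.3, 82.3 and 25.1 in Sox9null. Their log2 differences of -0.07, -0.10 and 0.04 had intervals that included 0.

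**Figure D2:**
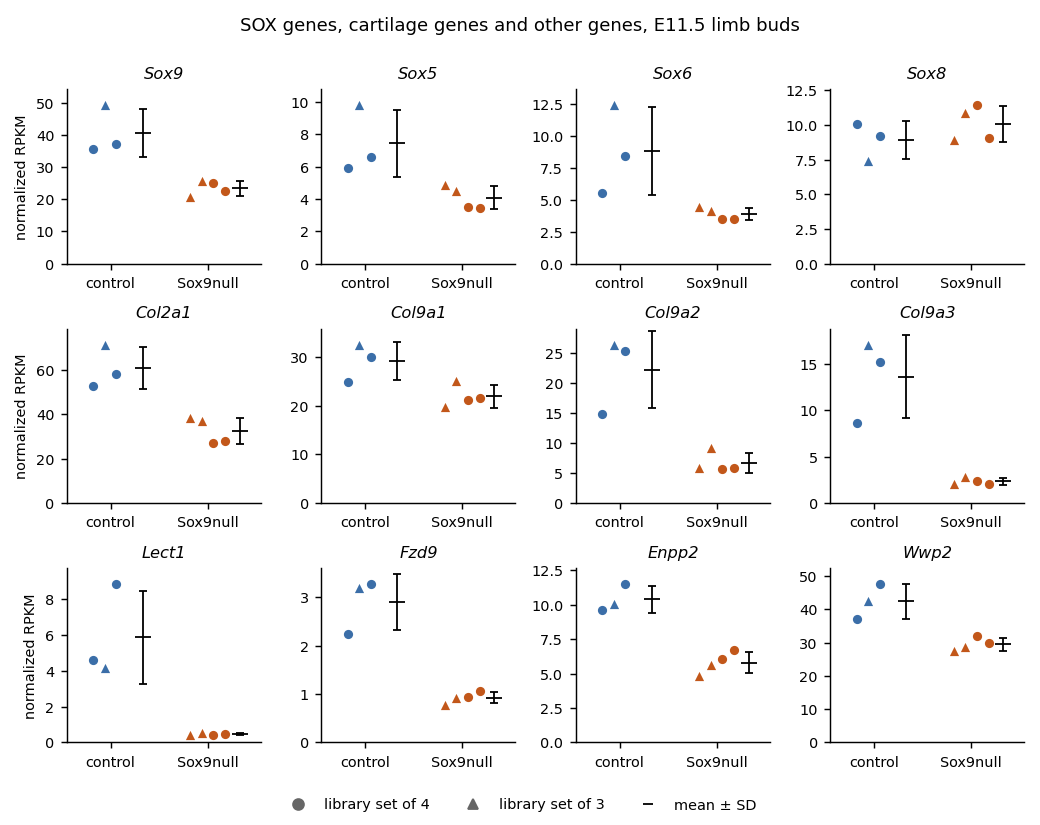
Normalized RPKM (y axes, from 0) of 12 genes in the 3 control and 4 Sox9null libraries at E11.5 (x axes), one point per library; circles are the library set of 4, triangles the set of 3, and bars the mean ± SD. Lect1, Fzd9 and Col9a3 show Sox9null points well below the controls, while Sox8 points of the groups overlap.

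Collagen IX, a heterotrimer that coats cartilage collagen fibrils, showed unequal values among its 3 chains. Col9a3 (ENSMUSG00000027570, chromosome 2) had 8.60, 17.1 and 15.2 RPKM in the controls against 2.08, 2.78, 2.42 and 2.04 in Sox9null. It fell by 2.09 on the log2 scale (95% interval -2.56 to -1.63, limma adjusted p = 0.00653). Col9a2 (ENSMUSG00000028626, chromosome 4) had 14.9, 26.5 and 25.4 RPKM in the controls against 5.80, 9.21, 5.73 and 5.90 in Sox9null, and fell by 1.58 (95% interval -2.04 to -1.13, limma adjusted p = 0.0184). In both genes control 1 was the lowest control and still above every mutant. Col9a1, the remaining chain, had 24.8, 32.5 and 30.03 RPKM in the controls against 19.6, 25.1, 21.2 and 21.6 in Sox9null, with Sox9null 2 just above control 1. Its log2 difference of -0.39 (95% interval -0.66 to -0.13) did not pass (limma adjusted p = 1), and its interval does not overlap those of the other chains. Col9a3 was called under 19 of 20 other settings, all but that without the E12.5 libraries. Col9a2 was called in 14 of 20 and not without controls 2 or 3 or mutants 1, 3 or 4, each left out in turn (limma adjusted p up to 0.164), or on the E11.5 libraries alone (limma adjusted p = 0.372).

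The fibrillar collagens of cartilage had lower means in Sox9null, and none of them passed the main test. Col2a1, the main collagen of cartilage, had 52.9, 71.3 and 58.2 RPKM in the controls against 38.4, 36.8, 27.0 and 28.1 in Sox9null, with no overlap. The log2 difference was -0.89 (95% interval -1.18 to -0.59), with a limma adjusted p of 0.0537, and of 2.48e-04 after adding the library set as a term. Col11a2, a chain of the minor fibrillar collagen XI, had 2.24, 4.95 and 5.17 RPKM in the controls against 1.62, 2.04, 1.604 and 1.803 in Sox9null (log2 difference -0.83, limma adjusted p = 1). Its groups did not overlap either, but control 1 was close to the mutants. Col11a1, the other such chain, had means of 18.8 and 16.01 RPKM in overlapping groups (log2 difference -0.22, 95% interval -0.46 to 0.03). The collagen VI genes Col6a1, Col6a2 and Col6a3, of the matrix around cells, had log2 differences of 0.04, -0.01 and 0.17. Of 10 cartilage collagens measured, 2 were called lower, against 0.0543% of all genes tested, and 0 higher. Of the 10, 8 were below 0, against 43.2% of all genes, and the median was -0.31. Outside that list, Col8a1, a short-chain collagen, had 2.23, 4.70 and 6.05 RPKM in the controls against 1.01, 1.75, 0.850 and 1.01 in Sox9null. Its log2 difference of -1.25 did not pass the main test (limma adjusted p = 0.112) and was called with the library set as a model term (limma adjusted p = 0.0326), a call kept in 3 of 10 alternatives with that term.

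Lect1, the gene of chondromodulin (Cnmd in current annotation), a secreted inhibitor of blood vessel growth made by cartilage, differed most among the called genes. Lect1 (ENSMUSG00000022025, chromosome 14) had 4.59, 4.17 and 8.85 RPKM in the controls against 0.439, 0.547, 0.444 and 0.451 in Sox9null. It fell by 2.16 on the log2 scale (95% interval -2.68 to -1.64, limma adjusted p = 0.00756). Control 3 was close to double the other controls, and the mutants lay within a narrow band. Lect1 was called under 17 of 19 other settings, and not with the replicate block or without the E12.5 libraries (limma adjusted p up to 0.115). Of 9 small secreted cartilage proteins measured, Lect1 alone was called, against 0.0543% of all genes tested. Of these 9, 8 were below 0, against 43.2% of all genes, with a median of -0.12. Among them Frzb and Wif1, secreted WNT antagonists, had means of 44.1 and 21.9 RPKM in the controls against 40.3 and 20.9 in Sox9null, with intervals of the difference that included 0.

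Matrix proteins of the proteoglycan aggregate were either hardly detected at this stage or did not pass the test. Matn4, the gene of the adaptor protein matrilin 4, had 1.77, 5.01 and 5.29 RPKM in the controls against 0.158, 0.603, 0.178 and 0.111 in Sox9null. The groups did not overlap, but control 1 lay far below the other controls, and the difference of -1.92 (95% interval -2.78 to -1.06) did not pass (limma adjusted p = 0.232). That interval overlaps the one of Lect1, so the missed call does not show a smaller change. Acan, the gene of aggrecan, the main cartilage proteoglycan, had 0.065 to 0.502 RPKM in the controls against 0.104 to 0.137 in Sox9null. Matn1, the gene of matrilin 1, had 0.304 to 0.725 RPKM in the controls against 0 to 0.126 in Sox9null, low values without overlap. Hapln1, whose product links aggrecan to hyaluronan, had 15.5, 13.3 and 11.9 RPKM in the controls against 20.6, 14.9, 14.5 and 15.8 in Sox9null (log2 difference 0.25, 95% interval -0.04 to 0.55). Of 14 genes on that list 0 were called, 8 were below 0 and the median was -0.01. Of 20 genes of glycosaminoglycan synthesis and sulfation 0 were called, with a median of -0.04. Their lowest was Papss2, which makes the sulfate donor for proteoglycans, at 3.99, 8.72 and 7.53 RPKM in the controls against 4.35, 4.67, 4.01 and 3.27 in Sox9null. Control 1 lay among the mutants. Over the 4 cartilage matrix lists together, 3 of 53 genes were called and 36 of 53 were below 0, with a median of -0.05. Over all genes tested, 0.0543% were called and 43.2% were below 0.

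Promoter sequences were looked at because 3 of the 7 called genes (Lect1, Col9a2 and Fzd9) had an entry in the RefSeq promoter table (GRCm38.p6). The 250 bases before the start site are shown for the pair with cartilage-specific products. Both strands were searched for 7-letter words bound by SOX proteins, made of CAAAG or CAATG after a pair of letters that are each A or T. A match is in capitals.
Col9a2, chr4:121039316-121039565, plus strand: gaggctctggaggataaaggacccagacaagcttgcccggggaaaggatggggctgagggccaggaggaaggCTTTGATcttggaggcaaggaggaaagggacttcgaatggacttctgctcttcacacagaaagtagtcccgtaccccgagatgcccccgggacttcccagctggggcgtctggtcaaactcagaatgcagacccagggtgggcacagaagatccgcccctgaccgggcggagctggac
Lect1, chr14:79662184-79662433, minus strand: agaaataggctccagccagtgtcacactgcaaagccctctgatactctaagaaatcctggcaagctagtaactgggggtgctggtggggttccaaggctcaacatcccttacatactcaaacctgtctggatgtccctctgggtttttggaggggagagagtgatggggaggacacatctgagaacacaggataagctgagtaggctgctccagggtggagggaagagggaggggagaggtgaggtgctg
Col9a2 held 1 match, starting 178 bases before the RefSeq start site on the opposite strand, and Lect1 and Fzd9 held none. The start sites of RefSeq and GENCODE differ: the GENCODE gene starts at 121039385 for Col9a2 and, on the minus strand, at 135251230 for Fzd9, inside the RefSeq windows, so the Col9a2 match lies just within the gene by that annotation. The words are common: 21.8% of 32851 promoter windows of the same length held at least 1. A search for A followed by CAAAG or CAATG, with any letter before it, overlaps the first search and found a match in 0 of the 3 windows and in 25.2% of all windows. A match is a description of letters and not a bound site, and enhancers outside these windows were not searched.

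Transcription factors and cofactors of chondrogenesis other than the SOX genes gave no call in the main test. Of 20 measured, 15 were below 0, against 43.2% of all genes tested, with a median of -0.18. Wwp2, which encodes a ubiquitin ligase and hosts the cartilage microRNA miR-140, had 37.1, 42.4 and 47.7 RPKM in the controls against 27.5, 28.6, 32.1 and 29.8 in Sox9null. Its groups did not overlap (log2 difference -0.50, limma adjusted p = 0.166, and 0.0747 after adding the library set as a term). Foxc1, a forkhead factor of skeletal mesenchyme, had 12.4, 15.6 and 14.7 RPKM in the controls against 9.95, 11.6, 8.94 and 8.88 in Sox9null. Foxc1 was called with the library set as a model term (limma adjusted p = 0.0111) and not without it (limma adjusted p = 0.212). Creb3l2, a factor for secretory genes, had 14.2, 29.5 and 12.6 RPKM in the controls against 21.1, 22.9, 11.4 and 10.2 in Sox9null. Its values split by library set, and it was called lower with the set as a term alone (log2 difference -0.34, limma adjusted p = 0.0162, against -0.17 and 1 without it). Nkx3-2 and Pax9, factors of cartilage progenitors, had 0.867 to 7.88 and 4.92 to 9.04 RPKM in the controls against 0.771 to 4.33 and 2.60 to 5.68 in Sox9null. Nkx3-2 spanned most of its range among the controls alone, and neither gene passed.

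Control 1 took the lowest control value in many of the genes above. It was the lowest of the 3 controls for Sox9, Sox5, Sox6, Col2a1, Col9a1, Col9a2, Col9a3, Col11a2, Matn4, Papss2 and Nkx3-2. The same held for Col8a1, Wwp2 and Foxc1, and for some genes given below, among them the called genes Fzd9 and Enpp2. Myh3, a muscle myosin gene that comes on as muscle differentiates, had 0.390 RPKM in control 1 and 6.10 and 3.57 in controls 2 and 3. Meis1 and Meis2, transcription factors of the proximal limb, were highest in control 1 among controls, at 15.2 and 13.0 RPKM, against 6.37 and 5.57 in control 2. What sets control 1 apart in these genes was not tested. Without control 1 limma called 8 genes, the 7 among them.

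Condensation genes, which act when mesenchymal cells gather before cartilage forms, gave no call. Of 22 measured 0 were called, 11 were below 0 and the median was 0.00. Cdh2 and Ncam1, adhesion molecules of condensing cells, had means of 14.6 and 25.6 RPKM in the controls against 15.6 and 24.99 in Sox9null. Their log2 differences of 0.08 (95% interval -0.16 to 0.32) and -0.02 (95% interval -0.31 to 0.26) leave room for changes of either sign. Fn1, fibronectin, had means of 62.2 and 65.2 RPKM. Vcan, the gene of the early matrix proteoglycan versican, had 32.1, 58.9 and 39.9 RPKM in the controls against 43.5, 37.5, 24.5 and 28.9 in Sox9null. Those values overlapped, and the log2 difference was -0.36 (95% interval -0.80 to 0.09).

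Among genes of the joint interzone, the cell layer where joints will form, Enpp2 fell. Enpp2 (ENSMUSG00000022425, chromosome 15) encodes autotaxin, a secreted enzyme that makes the lipid signal lysophosphatidic acid. It had 9.64, 10.0 and 11.499 RPKM in the controls against 4.84, 5.61, 6.02 and 6.69 in Sox9null, a log2 difference of -0.75 (95% interval -0.95 to -0.55, limma adjusted p = 0.0144). The lowest control was well above the highest mutant. Leaving out control 3 or mutant 2 or 3, or all E12.5 libraries, ended the call (limma adjusted p up to 0.372). Sfrp2, a secreted WNT antagonist, had 42.9, 46.7 and 49.3 RPKM in the controls against 32.5, 37.2, 36.4 and 34.8 in Sox9null. It was called with the library set as a model term (limma adjusted p = 0.0271) and not without it (0.0939). Gdf5, the growth factor that marks the interzone, had 8.71, 11.8 and 12.4 RPKM in the controls against 7.34, 12.1, 10.7 and 10.5 in Sox9null (log2 difference -0.11, 95% interval -0.52 to 0.31). Of 15 genes 1 was called and 10 were below 0, against 0.0543% and 43.2% of all genes tested, and the median was -0.16.

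Of the signalling lists, the WNT list held the single called gene, a receptor. Fzd9 (ENSMUSG00000049551, chromosome 5), a Frizzled receptor of WNT ligands, had 2.24, 3.18 and 3.27 RPKM in the controls against 0.784, 0.910, 0.933 and 1.06 in Sox9null. It fell by 1.01 on the log2 scale (95% interval -1.29 to -0.73, limma adjusted p = 0.0144). The call was lost without control 2 or 3, without Sox9null 1, 2 or 3, without the E12.5 libraries, and with the replicate block (limma adjusted p up to 0.199). Of the 39 WNT receptors, ligands and antagonists measured, 17 were below 0, and the median of 0.02 was near that of all genes. Fzd2, the Frizzled gene with the highest level on the list, had means of 46.4 and 46.5 RPKM. The ligand Wnt4 had 7.77, 5.86 and 5.92 RPKM in the controls against 11.0, 8.61, 7.69 and 7.31 in Sox9null (log2 difference 0.36, limma adjusted p = 1).

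No member of the BMP (25 genes), hedgehog (15), FGF (18), NOTCH (17) or TGF-beta and retinoic acid (18) lists was called. Their medians lay between -0.04 for FGF and 0.06 for NOTCH. Bmpr1b, a BMP receptor of condensations, had means of 9.57 and 7.69 RPKM, and Nog, a BMP antagonist, 2.16 and 1.51, with intervals that included 0. Fgfr3, an FGF receptor of chondrocytes, had 5.66, 9.09 and 9.26 RPKM in the controls against 5.84, 6.99, 4.21 and 4.82 in Sox9null (log2 difference -0.47, 95% interval -0.95 to 0.01). Rarb, a retinoic acid receptor, had 10.0, 6.03 and 7.40 RPKM in the controls against 14.9, 10.7, 8.11 and 14.6 in Sox9null (log2 difference 0.56, 95% interval 0.13 to 0.99, limma adjusted p = 1). Shh, the ligand of the posterior limb bud, ranged from 2.99 to 8.52 RPKM in the controls and from 3.62 to 7.59 in Sox9null, and the 95% interval of its difference was -0.80 to 1.16.

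**Figure D3:**
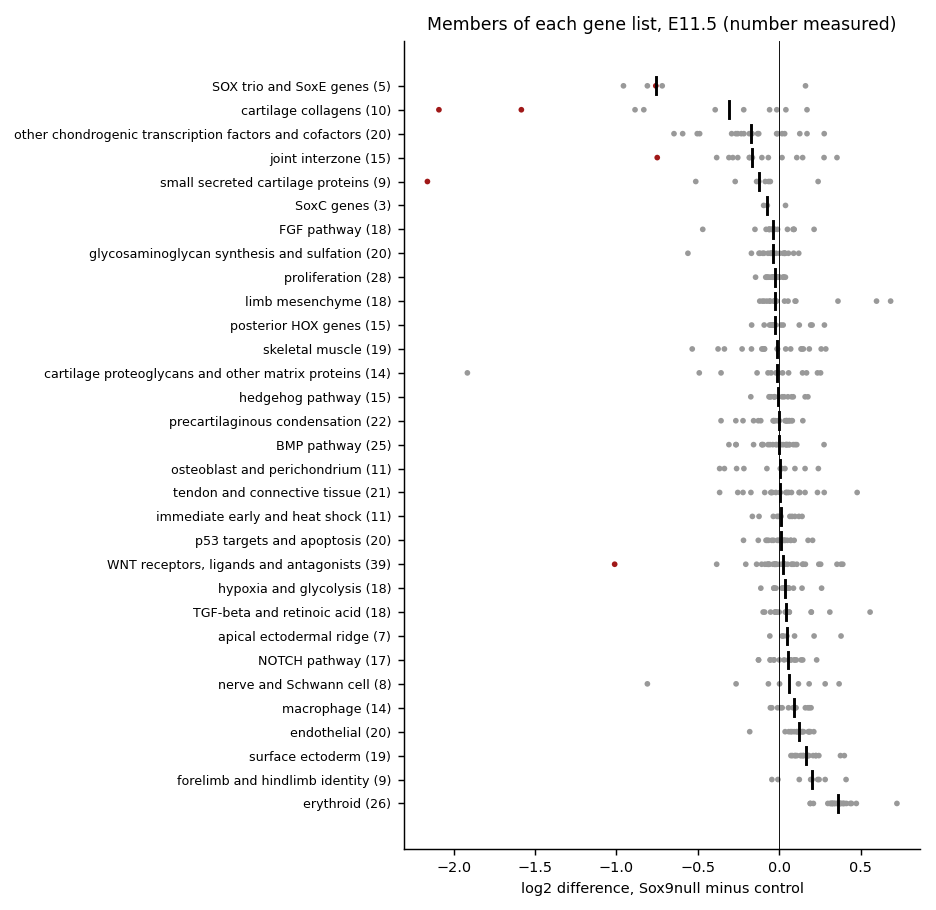
Log2 difference between Sox9null and control (x axis) of each measured member of 31 gene lists (rows, with the number measured); red points are genes called by limma, grey points are not called, and black bars are list medians. The SOX genes and cartilage collagens have medians of -0.76 and -0.31, and the erythroid genes one of 0.36.

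Limb patterning genes gave no call either. Of 18 limb mesenchyme genes 0 were called and 11 were below 0, with a median of -0.03. Of 15 posterior HOX genes 0 were called, with a median of -0.02. Hoxd13 and Hoxa13, which specify the digits, had means of 59.6 and 42.9 RPKM in the controls against 55.7 and 41.0 in Sox9null. Of 9 forelimb and hindlimb identity genes 0 were called and 7 were above 0, with a higher median of 0.20. The highest of them was Hoxc6, at a log2 difference of 0.41. Across these 3 lists the widest differences were those of Meis1 and Meis2. Meis1 and Meis2 had means of 10.8 and 9.36 RPKM in the controls against 16.1 and 15.1 in Sox9null. Their groups overlapped, and the intervals of -0.16 to 1.36 and -0.05 to 1.42 included 0. Among 28 proliferation genes 0 were called and 23 were below 0, with a median of -0.03 that was 0.01 with the library set as a term. Among 20 p53 targets and apoptosis genes 0 were called, with a median of 0.01.

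After the library set was added as a term, further genes were called lower that are on no cartilage list. Nr4a2, an orphan nuclear receptor, had 8.03, 7.38 and 9.13 RPKM in the controls against 4.21, 4.82, 5.81 and 4.83 in Sox9null (limma adjusted p = 0.0363, and 0.147 without the term), a call kept in 3 of the 10 alternatives with the term. Dhrs3, which turns retinaldehyde back into retinol, had 10.7, 9.07 and 11.1 RPKM in the controls against 6.76, 6.05, 6.71 and 7.02 in Sox9null (limma adjusted p = 0.0128, and 0.0685 without the term). Both had the lowest control above the highest mutant. Dab1, an adaptor of Reelin signalling, had means of 3.68 and 2.16 RPKM, Abca8b, a membrane transporter, 4.86 and 3.04, and Rab32, a small GTPase, 15.7 and 10.7. Prdm16, a transcriptional regulator, had 23.5, 35.2 and 23.4 RPKM in the controls against 28.3, 28.0, 19.0 and 17.6 in Sox9null. Its groups overlap over all libraries and part within each set, with differences of -0.34 and -0.31 (limma adjusted p = 0.0035 with the term, and 1 without it). Others called this way were Nfatc2 (kept in 1 of 10 alternatives), Fbln2, Sema6a, Srgap3, Kif21b and Myo10. Names without such a count are not firmer calls: 19 of the 34 genes called with the term alone were called in at most 5 of its 10 alternatives. Fam181b (20.2 and 11.6 RPKM) and the antisense gene Gm9934 (6.14 and 3.16 RPKM) overlap on opposite strands of chromosome 7, so they may share reads, as may Palm2, Akap2 and Gm20459, which overlap on chromosome 4.

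**Figure D4:**
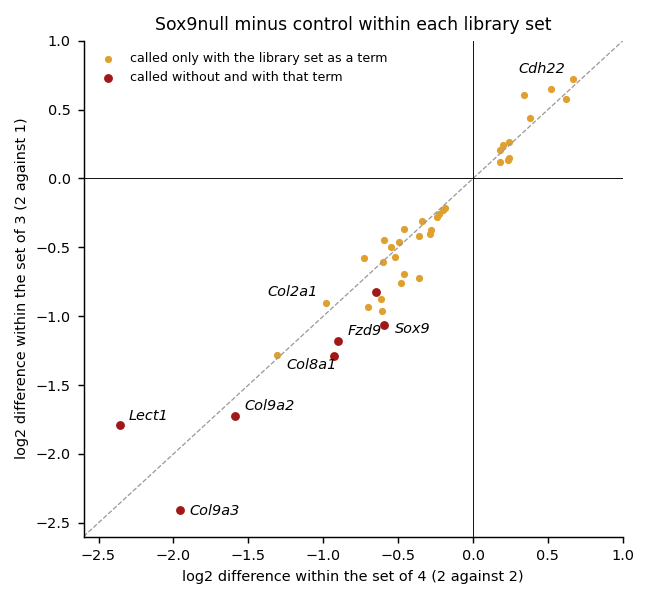
Log2 difference between Sox9null and control of the 41 genes called with the library set as a term, within the set of 4 (x axis, 2 libraries against 2) and within the set of 3 (y axis, 2 against 1); red genes were also called without that term, and the dashed line marks equal differences. Each of the 41 has the same sign on both axes, a property for which they were in effect chosen.

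On the other side, 0 genes were called higher in the main test, and 11 after adding the library set as a term, with log2 differences there of 0.16 to 0.69. Cdh22, a cell adhesion molecule of the cadherin family, had the largest of these. It had 4.09, 3.93 and 4.48 RPKM in the controls against 6.78, 7.54, 7.78 and 7.00 in Sox9null, every mutant above every control. The log2 difference was 0.68 (95% interval 0.45 to 0.91, limma adjusted p = 0.0554, and 0.0162 after adding the library set as a term). Ldb2, a cofactor of LIM-domain factors, had 23.0, 20.8 and 22.7 RPKM in the controls against 24.9, 25.6, 26.7 and 27.7 in Sox9null (limma adjusted p = 0.416, and 0.0162 with the term). Tmem200b, a membrane protein gene, had 7.44, 5.11 and 6.90 RPKM in the controls against 8.69, 7.92, 8.45 and 10.3 in Sox9null (0.785 and 0.0377). These 3 kept their groups apart. Cd34, a surface protein of blood vessel and blood progenitor cells, had 28.6, 21.2 and 28.6 RPKM in the controls against 25.1, 25.3, 32.3 and 33.6 in Sox9null, and its groups overlapped.

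Over all genes, 181 (1.41%) had every Sox9null value above every control and 137 (1.06%) every one below. Of the 12 largest positive differences among such genes with a group mean of 3 RPKM or more, 6 were small RNA genes, and none of the 12 was called in the main test. Eln, the gene of elastin, had 8.22, 9.35 and 9.45 RPKM in the controls against 12.9, 16.9, 12.2 and 10.5 in Sox9null (log2 difference 0.48, limma adjusted p = 1). Syt13, a synaptotagmin, had 7.02, 4.74 and 6.32 RPKM in the controls against 9.76, 9.34, 9.29 and 9.00 in Sox9null (log2 difference 0.57, limma adjusted p = 1). Apoc1, an apolipoprotein, and Mt2, a metal-binding protein, had means of 2.82 and 8.04 RPKM in the controls against 5.83 and 13.9 in Sox9null. Both varied widely among the mutants, from 3.35 to 9.46 and from 10.9 to 19.3 RPKM.

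**Figure D5:**
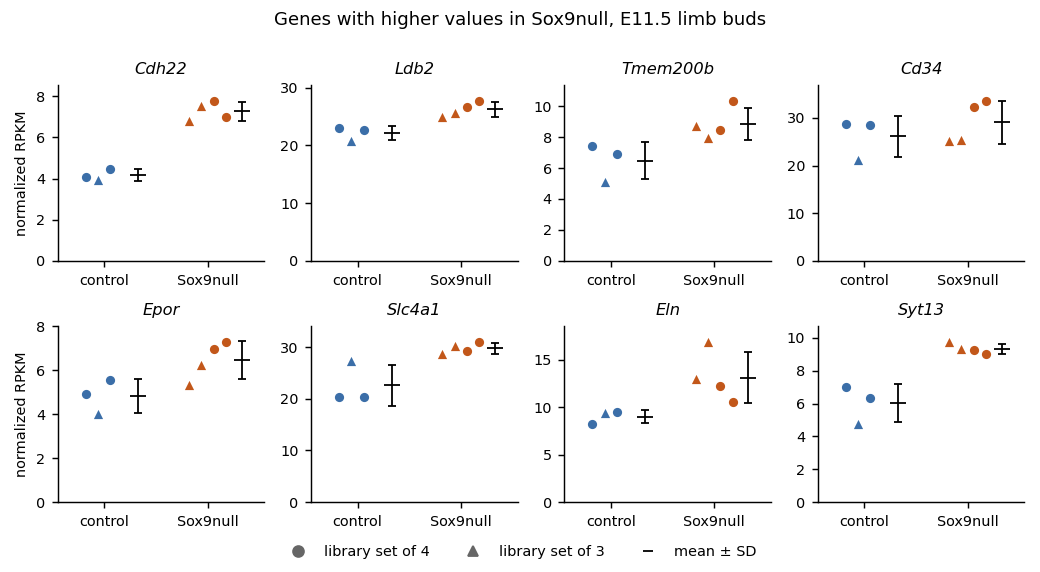
Normalized RPKM (y axes, from 0) of 8 genes with higher means in Sox9null, by library at E11.5 (x axes); circles are the library set of 4, triangles the set of 3, and bars the mean ± SD. Cdh22 has every Sox9null library between 6.78 and 7.78 and every control at 4.48 or less, and Cd34 and Epor overlap between the groups over all libraries.

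Markers of red blood cells, vessels and surface ectoderm had list medians above 0, no member called in the main test, and summed levels that overlapped between the groups. All 26 measured erythroid genes were above 0, with a median of 0.36, 0 called in the main test and 1 (Epor, the erythropoietin receptor) with the library set as a term. Their summed level was 1039, 941 and 971 RPKM in the controls against 979, 1007, 1514 and 1666 in Sox9null, a sum made mostly of globin RNA and highest in Sox9null 3 and 4. Hbb-y, an embryonic globin gene, had 475, 407 and 443 RPKM in the controls against 408, 419, 688 and 766 in Sox9null. Slc4a1, the anion exchanger of red cells, had 20.3, 27.2 and 20.4 RPKM in the controls against 28.6, 30.2, 29.3 and 31.0 in Sox9null, and thus no overlap. Of the 26 genes, 11 had every Sox9null value above every control, against 181 (1.41%) of all genes, and 0 had every value below. Reads of globin genes can be shared between near-identical copies, so single globin values are uncertain.

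Endothelial genes had a median of 0.12, with 19 of 20 above 0, 0 called and summed levels of 238 to 258 RPKM in the controls against 251 to 293 in Sox9null. All 19 surface ectoderm genes were above 0, with a median of 0.16, 0 called and summed levels of 225 to 268 and 240 to 329 RPKM. The ectoderm median was 0.07 without Sox9null 1, the library with the highest sum. The endothelial median was 0.07 without control 2, and it moved by more than the spread between replicates under 8 of 20 other settings. Macrophage genes had 11 of 14 above 0 and a median of 0.09, and muscle genes 8 of 19 and a median of -0.01. Neither list had a called member. Vegfa, a growth factor for blood vessels, had 19.9, 17.9 and 21.5 RPKM in the controls against 23.3, 24.9, 23.3 and 23.9 in Sox9null (log2 difference 0.26, limma adjusted p = 0.421). Among 8 nerve and Schwann cell genes, Sox10 was lowest, as given above, and Erbb3, a receptor of Schwann cell precursors, had means of 10.7 and 8.81 RPKM (95% interval -0.54 to 0.01). The part of a changed mix of cell types in the differences above was not tested.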

How the data were processed

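Illumina libraries were made from limb bud RNA (RNeasy Mini Kit), per the labels. CASAVA 1.8 and mm10 are named in the submitters' processing notes (aligner, counting and use of strand: not given in the sources used here). Normalized RPKM values per gene and library were deposited by the authors, who kept genes with a mean of 3 or more in at least 1 of 4 groups, per the file headers. The group means, SDs and the deposited p-value of the authors were not used. Genes low in all groups are not in the table. The files state no depth. A search for whole-read steps in low values of small RNA genes took the genomic span as gene length. It found no clear steps (32.8% to 48.7% of values within 0.15 of a whole multiple). Steps under other gene lengths were not searched, and no count model was used.

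Log2(RPKM + 1) values were fitted with limma 3.58.1 in R 4.3.3 (trend and robust) with 4 group means over 13 libraries; the filter of 1 RPKM in at least 3 libraries removed 0 genes. Tests were two-sided, and 95% intervals were not adjusted over genes. Limma p-values of the main fit set differences against the spread between embryos within the 4 groups, those at E12.5 included. They do not measure the spread of the E11.5 embryos alone. The fit was also run on simulated data that gave each gene the same spread in all libraries. Such data cannot show whether the spread is equal between the stages. Coordinates came from GENCODE M21 (12715 of 12880 identifiers matched). No libraries were identical. Named genes were Sox9, genes called without or with the library set as a term, the 12 largest rises and falls without overlap at a mean of at least 3 RPKM, and members of 32 lists (465 of 546 symbols measured); Runx2, Ihh and Col10a1 were among those not analysed here, and 1 called gene is not reported here. The comparison, lists and naming rule were chosen with earlier results of these data known, so they are no independent support. There were 20 planned and 10 added alternatives, the latter chosen after seeing the data. Replicate numbers are not known to pair the samples and were not used as pairs in the main fit.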

Additional observations from a re-analysis of the deposited data

Results flagged for a closer look

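In 5 of 98 genes examined, 1 of the 4 Sox9null libraries stood apart from the other 3 by more than Dixon's 95% limit; chance alone gives this in about 1 in 20 groups. Sox9null 2 was the highest for Lect1, at 0.547 RPKM against 0.439 to 0.451, for Col9a2, at 9.21 RPKM against 5.73 to 5.90, and for Matn4, at 0.603 RPKM against 0.111 to 0.178. In these 3 genes it lay below each control all the same. The same library was the lowest for Shh, at 3.62 RPKM against 6.95 to 7.59. For Nog, Sox9null 3 was the highest, at 1.74 RPKM against 1.42 to 1.46.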

How the results depend on the processing

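The count of called genes was 7 in the main fit. It was 41 with the library set as a term, 0 on the E11.5 libraries alone, 3 at a mean of at least 5 RPKM and 13 with each library centred on its median (12 lower, 1 higher). With the replicate block it was 5, of which 4 were among the 7; the numbers are not known to pair embryos, and the correlation of deviations was -0.43, 0.64 and 0.44 for numbers 1, 2 and 3. Leaving out 1 library gave 2 to 8 calls: 2 when it was control 3 or mutant 3, and 3 when it was mutant 1 or 2; the 8 without control 2 held 3 of the 7. Counts under the remaining alternatives were 7 to 9. These held all of the 7 main calls except with a sex term (5 of them), quantile normalization (6) and no trend (6). With the library set as a term, 41 became 10 on the E11.5 libraries alone, 46 with a pseudocount of 0.1 or quantile normalization, and, without 1 library, 66 (control 1), 21 (control 2), 8 (control 3), 60, 25, 26 and 8 (mutants 1 to 4); of the 41, these held 35, 5, 8, 35, 24, 24 and 7. Sox9 kept its direction in each alternative (log2 -0.84 to -0.62). Its exact permutation p was 0.0571 with all 7 libraries, 0.1 without 1 mutant and 0.133 without 1 control. Each of these is the floor for its number of splits, so the rise in p does not show a weaker difference. Of 640 list medians under alternatives, 624 moved by less than the spread between replicates and 16, in 5 lists, by more. Unknown depth and 3 against 4 embryos limit the precision. The cause of these changes was not tested.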
